A study of Homo sapiens with 9 samples.

Results

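Mitochondrially encoded transcripts, among them ND6 and COX3, were examined in cells of PC3, an established line of human prostate cancer, on Affymetrix U133 Plus 2.0 arrays. Every probe set whose platform annotation names a mitochondrially encoded gene and no other gene was taken, which gave 10 of 54675 probe sets. They read 7 of the 19775 genes that the annotation names alone: ND2, COX1, COX2 (2 probe sets), ATP6 (2), COX3, ND4 (2) and ND6, and all 10 passed the filter on low values. The mitochondrial genome holds 13 protein genes, and 6 of them have no probe set of their own here. ND6 and COX3 had been selected on their log2 differences between each co-culture and untreated PC3 cells on these same arrays, so those differences are given as a description without a test. The other 8 probe sets were taken by annotation alone.

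The arrays cover PC3 cells after 48 h with osteoblasts of mice that lack Sost (OB SostKO, 2 arrays), with wild type mouse osteoblasts and 100 ng/ml recombinant human DKK1 (OB WT + rhDKK1, 2 arrays), with wild type mouse osteoblasts and 100 ng/ml recombinant human SOST (OB WT + rhSOST, 3 arrays), or in growth medium alone (untreated PC3, 2 arrays). The study asked how osteoblasts and the Wnt antagonists DKK1 and SOST act on PC3 cells. The osteoblasts were primary calvarial cells of newborn mice. In the paper's invasion and reporter assays a culture insert kept osteoblasts and PC3 cells apart. The paper's account of the arrays does not give the layout of their co-cultures. All groups are PC3 cells, a single cell line, and the arrays of a group are labeled as biological replicates without a word on what was repeated, so the spread between arrays may in part be technical. The arrays lack a group given only wild type osteoblasts, a condition that the paper did include in its invasion assays. In 2 of the 3 co-cultures the osteoblasts and the protein therefore cannot be told apart. In the OB SostKO group, likewise, the presence of osteoblasts and their lack of Sost cannot be told apart.

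The mitochondrial genome is a small circular DNA that is transcribed from both strands into long precursors, from which ribosomal RNAs, messenger RNAs and transfer RNAs are cut. Almost all messenger RNAs come from the transcript of the heavy strand and receive short poly(A) tails. ND6 is the only messenger RNA of the opposite transcript and is known for lacking a stable poly(A) tail. The encoded proteins are core subunits of the respiratory chain: the ND proteins belong to complex I, the COX proteins to complex IV and ATP6 to the ATP synthase. The annotation lists a source record for both ND4 probe sets and for ATP6 242131_at, none for the other 7, and a strand for none of the 10. No sequences are printed, since none of these transcripts were in the reference tables used here. Sequences much like each gene also lie in the nuclear genome: the RefSeq table (GRCh38.p14) names 36 nuclear pseudogenes of ND6, 47 of COX3 and between 31 and 58 of each of the other 5 genes. The suffix x in the COX3 probe set and in COX2 1553570_x_at marks probes that can match other transcripts, and the suffix s, in 4 of the 10, marks probes shared by several transcripts.

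ND6, a membrane subunit of complex I, was higher in PC3 cells of every co-culture than in untreated PC3 cells. Its probe set 1553575_at had log2 values of 9.83 and 9.06 with OB SostKO, 9.50 and 9.96 with OB WT + rhDKK1, and 9.48, 9.69 and 9.54 with OB WT + rhSOST, against 7.57 and 6.64 in untreated PC3 cells. The 7 co-culture arrays lay above both untreated arrays, and the smallest gap between them was 1.49 on the log2 scale. Over all 33970 kept probe sets, 24.6% were higher without overlap in the OB SostKO group, 27.1% in the rhDKK1 group and 21.2% in the rhSOST group. The group means were 9.44 ± 0.55 (SD, n = 2) with OB SostKO, 9.73 ± 0.33 (SD, n = 2) with rhDKK1, 9.57 ± 0.11 (SD, n = 3) with rhSOST and 7.10 ± 0.65 (SD, n = 2) in untreated PC3 cells. The log2 differences from untreated PC3 cells were 2.34, 2.63 and 2.47 for OB SostKO, rhDKK1 and rhSOST, or 5.06-fold, 6.18-fold and 5.53-fold. Among the 33970 probe sets that passed the filter (the 40th percentile of the array on at least 2 arrays), these differences took rank 3 with OB SostKO, rank 2 with rhDKK1 and rank 1 with rhSOST, counted from the largest rise. The 3 comparisons share the 2 untreated arrays, so their likeness is not independent. Those 2 arrays also had the widest spread of ND6 within a group.

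COX3, a core subunit of cytochrome c oxidase, lay on the other side. Probe set 238199_x_at had log2 values of 7.56 and 7.66 with OB SostKO, 7.60 and 7.53 with rhDKK1, and 7.73, 7.47 and 7.72 with rhSOST, against 9.34 and 9.14 in untreated PC3 cells. All co-culture arrays lay within 0.26 of each other and at least 1.41 below the untreated arrays. Mean values were 7.61 ± 0.07 (SD, n = 2), 7.56 ± 0.04 (SD, n = 2) and 7.64 ± 0.15 (SD, n = 3) in the OB SostKO, rhDKK1 and rhSOST groups and 9.24 ± 0.15 (SD, n = 2) in untreated PC3 cells. The log2 differences were -1.63, -1.68 and -1.60 for the 3 co-cultures in the same order. Counted from the largest fall, they took rank 10 with OB SostKO and rank 9 with each of rhDKK1 and rhSOST.

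**Figure D1:**
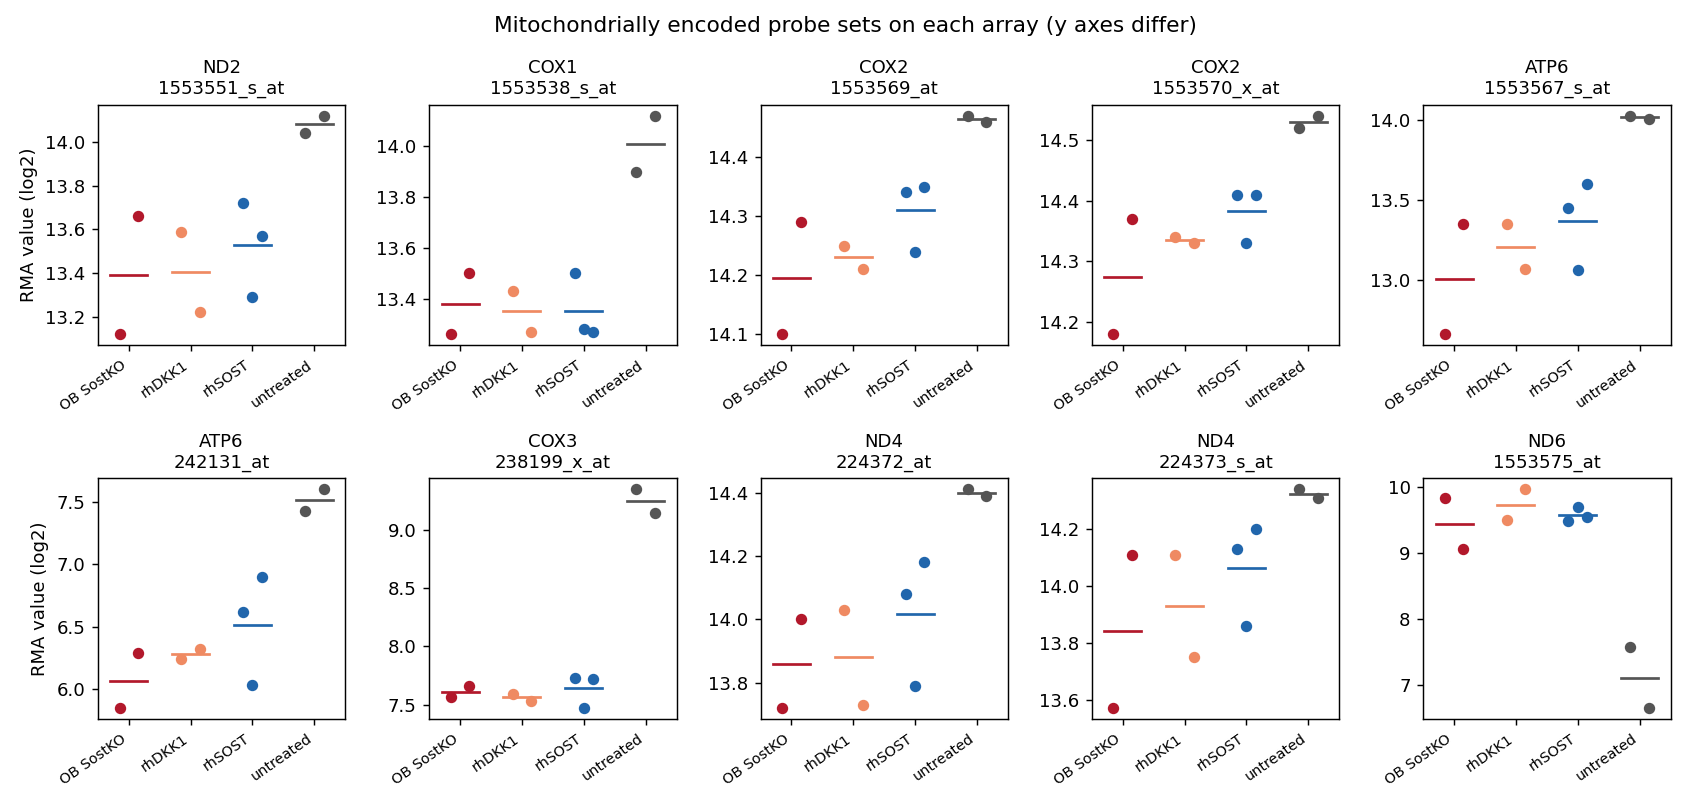
Each panel is a mitochondrially encoded probe set, with the RMA value (log2) of each array as a point and the group mean as a line, for the 3 co-cultures and, at the right, untreated PC3 cells; the y axes differ between panels. ND6 is the panel in which the 7 co-culture arrays lie above the untreated arrays, by at least 1.49, and in the other 9 panels they lie below.

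The 8 probe sets taken by annotation alone were lower in each co-culture than in untreated PC3 cells. Of these 8, 8 had all arrays of a co-culture below both untreated arrays in each of the 3 co-cultures. Over all 33970 probe sets, 22.9% were lower without overlap in the OB SostKO group, 25.7% in the rhDKK1 group and 16.2% in the rhSOST group. For the 3 co-cultures in the same order, the median log2 difference of the 8 was -0.58, -0.59 and -0.47, and over all kept probe sets it was -0.00053, -0.0035 and 0.01. In RNA from a whole culture, fewer mitochondrial genomes per cell and less RNA from each cannot be told apart.

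ATP6, the subunit of the ATP synthase that forms its proton channel and the neighbor of COX3 on the genome, is read by 2 probe sets. The brighter one, 1553567_s_at, had log2 values of 12.66 and 13.35 with OB SostKO, 13.35 and 13.07 with rhDKK1, and 13.45, 13.06 and 13.60 with rhSOST, against 14.03 and 14.01 in untreated PC3 cells. The dimmer one, 242131_at, had 5.84 and 6.29 with OB SostKO, 6.24 and 6.32 with rhDKK1, and 6.61, 6.03 and 6.90 with rhSOST, against 7.43 and 7.60 in untreated PC3 cells. In both probe sets OB SostKO array 1 was the lowest of the 9 arrays and rhSOST array 3 the highest of the co-culture arrays. The log2 differences of 1553567_s_at were -1.02, -0.81 and -0.65 for OB SostKO, rhDKK1 and rhSOST, and those of 242131_at were -1.45, -1.24 and -1.004. In the limma fit of all 9 arrays, with p-values adjusted over all kept probe sets, 242131_at fell in the OB SostKO co-culture (adjusted p = 0.0411, standard error 0.26), and it did not pass 0.05 with rhDKK1 (adjusted p = 0.0605) or rhSOST (adjusted p = 0.0599).

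COX1, the catalytic subunit of cytochrome c oxidase, had log2 values of 13.26 and 13.50 with OB SostKO, 13.43 and 13.27 with rhDKK1, and 13.50, 13.28 and 13.27 with rhSOST, against 13.90 and 14.12 in untreated PC3 cells. The differences were -0.63, -0.66 and -0.66 on the log2 scale with standard errors of 0.13, 0.13 and 0.12. COX1 fell with rhSOST by limma (adjusted p = 0.0274), while the adjusted p was 0.0612 with OB SostKO and 0.0523 with rhDKK1. Between the co-cultures the means of COX1 differed by at most 0.03 on the log2 scale.

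ND2 and ND4 are membrane subunits of complex I, like ND6, but belong to the heavy strand transcript. ND2 had log2 values of 13.12 and 13.66 with OB SostKO, 13.59 and 13.22 with rhDKK1, and 13.72, 13.29 and 13.57 with rhSOST, against 14.04 and 14.12 in untreated PC3 cells, which gave differences of -0.69, -0.67 and -0.55. ND4 224372_at had 13.72 and 14.00 with OB SostKO, 14.03 and 13.73 with rhDKK1, and 14.08, 13.79 and 14.18 with rhSOST, against 14.41 and 14.39 in untreated PC3 cells. Its second probe set, 224373_s_at, had 13.57 and 14.11 with OB SostKO, 14.11 and 13.75 with rhDKK1, and 14.13, 13.86 and 14.20 with rhSOST, against 14.34 and 14.31 in untreated PC3 cells. The co-culture arrays of these 3 probe sets lay below the untreated arrays without overlap, and within each co-culture they spread over more of the scale than the untreated arrays did. The ND4 differences ran between -0.54 and -0.27, and neither ND2 nor ND4 passed an adjusted p under 0.05 in any co-culture.

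COX2, the subunit of cytochrome c oxidase that takes electrons from cytochrome c, showed the smallest differences of the members. Probe set 1553569_at had log2 values of 14.10 and 14.29 with OB SostKO, 14.25 and 14.21 with rhDKK1, and 14.34, 14.24 and 14.35 with rhSOST, against 14.47 and 14.46 in untreated PC3 cells. Probe set 1553570_x_at had 14.18 and 14.37 with OB SostKO, 14.34 and 14.33 with rhDKK1, and 14.41, 14.33 and 14.41 with rhSOST, against 14.52 and 14.54 in untreated PC3 cells. The differences lay between -0.27 and -0.15, the groups did not overlap, and none passed the adjusted p. A further probe set, 1553588_at, names ND3 together with the nuclear gene SH3KBP1 and is therefore not among the 10. It had 14.19 and 14.19 with OB SostKO, 14.15 and 14.25 with rhDKK1, and 14.21, 14.14 and 14.19 with rhSOST, against 14.40 and 14.36 in untreated PC3 cells, which were again the 2 highest arrays.

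Counted over the 8 probe sets, limma called 1 lower in the OB SostKO group, 0 in the rhDKK1 group and 1 in the rhSOST group, and none higher. Of all kept probe sets, 0.718% were called lower in the OB SostKO group, 0.721% in the rhDKK1 group and 1.32% in the rhSOST group. Adjusted p-values of the 8 ran from 0.0411 to 0.238 with OB SostKO, from 0.0523 to 0.322 with rhDKK1 and from 0.0274 to 0.456 with rhSOST. The calls rested on few arrays. With each of the 9 arrays left out in turn, ATP6 242131_at passed with OB SostKO in 2 of 9 fits (without rhSOST array 2 or 3; adjusted p from 0.0166 to 0.169 over the 9) and COX1 passed with rhSOST in 4 of 9 (without either OB SostKO array or without rhSOST array 1 or 3; adjusted p from 0.0352 to 0.113). Without rhSOST array 3 the count was 2 in each co-culture, and the replicate block left 0 with rhSOST.

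The bright members lay close to the top of the scale, where signals are compressed. In untreated PC3 cells the 7 bright probe sets of COX2, ND4, ND2, COX1 and ATP6 had mean values between 0.08 and 0.60 below the highest probe set of their array, and their differences reached from -1.02 to -0.15 over the 3 co-cultures. ATP6 242131_at lay 7.09 below the highest value and COX3 5.36 below. The part of such compression in the differences was not tested.

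**Figure D2:**
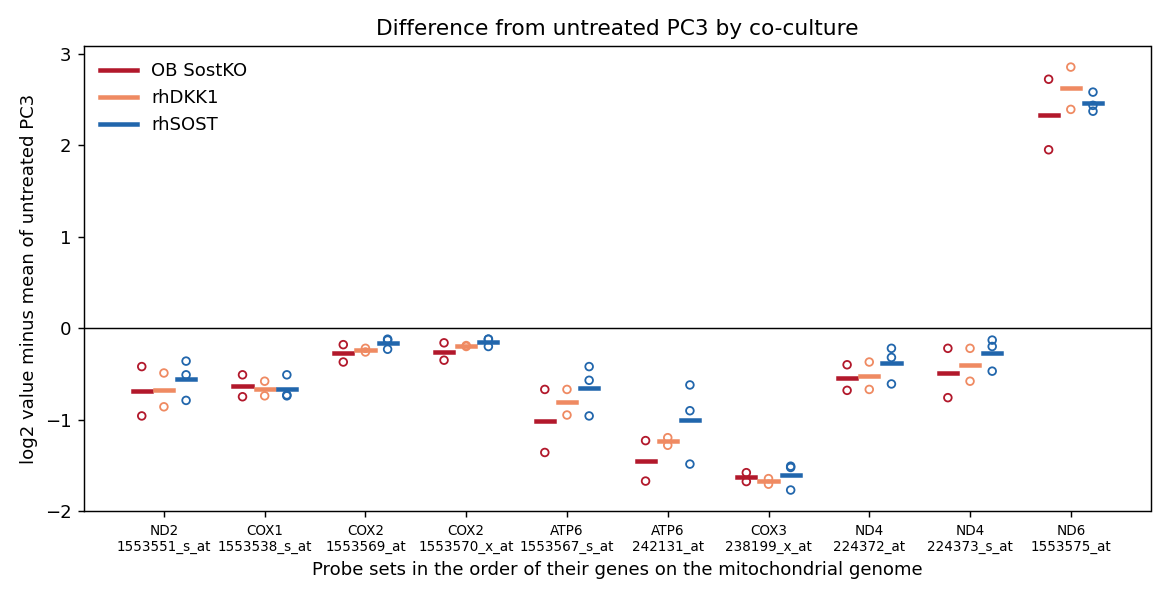
Log2 value minus the mean of untreated PC3 cells (y axis) for the 10 probe sets in the order of their genes on the mitochondrial genome (x axis), by co-culture; circles are arrays and bars are group means. ND6 stands at 2.34 to 2.63, COX3 at -1.68 to -1.60, and the COX2 probe sets at -0.27 to -0.15.

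The co-cultures were also compared with each other, which the choice of ND6 and COX3 had not used. No difference between co-cultures passed the test for any of the 10 probe sets, with 0 of 10 called in each of the 3 comparisons (0% of all 33970 probe sets called in OB SostKO against rhSOST, 0% in rhDKK1 against rhSOST and 0% in OB SostKO against rhDKK1) and none of the 10 at an unadjusted p under 0.05 in limma. Over all probe sets, 1165, 791 and 290 had an unadjusted p under 0.05 in these comparisons. ND6 differed by -0.13 on the log2 scale between OB SostKO and rhSOST (95% interval -0.83 to 0.58), by 0.16 between rhDKK1 and rhSOST (-0.54 to 0.86) and by -0.29 between OB SostKO and rhDKK1 (-1.06 to 0.48). For COX3 the differences were -0.03 (-0.27 to 0.22), -0.08 (-0.32 to 0.17) and 0.05 (-0.22 to 0.31). The intervals of COX3 were thus much narrower than those of ND6, which together reached from -1.06 to 0.86. ND6 differences between co-cultures within its intervals remain compatible with these arrays. Of the 10, ATP6 242131_at had the largest difference, -0.45 between OB SostKO and rhSOST (-0.996 to 0.10, adjusted p = 0.843 by limma).

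Within the co-cultures ND6 and the other members deviated from their group means in opposite directions, a pattern picked out after the values were seen. On OB SostKO array 1, rhDKK1 array 2 and rhSOST array 2, ND6 lay 0.39, 0.23 and 0.12 above its group mean, and 9, 8 and 9 of the other 9 probe sets lay below theirs. On OB SostKO array 2, rhDKK1 array 1, rhSOST array 1 and rhSOST array 3, ND6 deviated by -0.39, -0.23, -0.09 and -0.03, and 9, 8, 9 and 8 of the other 9 lay above their group means. The exceptions were ATP6 242131_at on the rhDKK1 arrays and COX1 on rhSOST array 3. For 7 of the 9 the sign was opposite to that of ND6 on all 7 arrays, as it was for 5.04% of all kept probe sets, while 4.79% shared the sign of ND6 throughout. In a group of 2 arrays the deviations mirror each other by construction, and all members of an array come from the same labeled RNA.

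**Figure D3:**
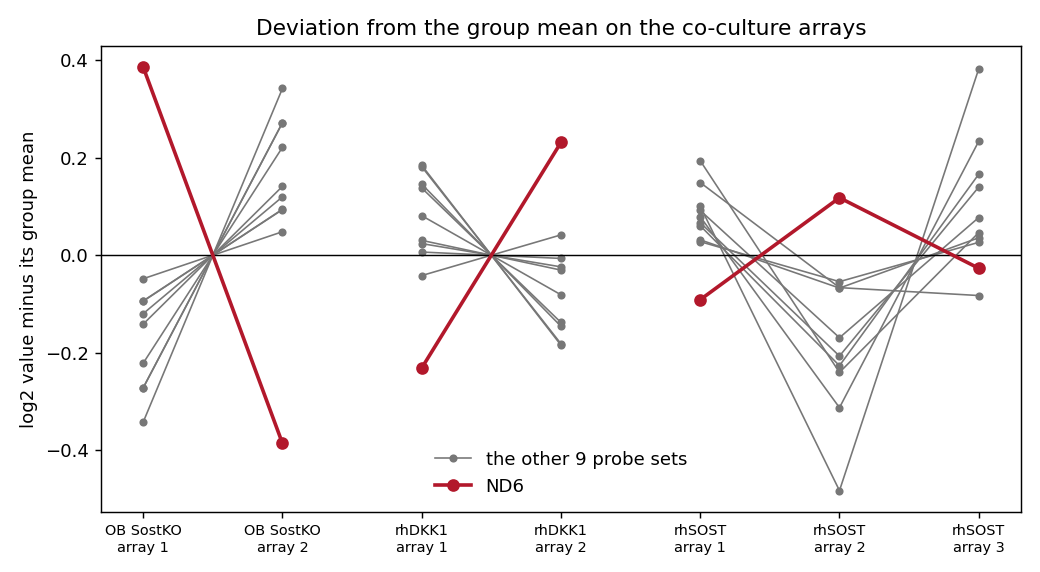
Log2 value minus its group mean (y axis) on the 7 co-culture arrays (x axis) for ND6 (red) and the other 9 mitochondrially encoded probe sets (gray); lines join the arrays of a group. ND6 lies at 0.39, 0.23 and 0.12 on the 3 arrays where at least 8 of the other 9 lie below their group mean.

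Control signals also differed between the co-culture arrays and the untreated arrays, on which each comparison with untreated PC3 cells rests. Control RNAs with poly-A tails, spiked in before labeling, averaged 6.65 ± 0.28 on the log2 scale (SD, n = 7) on the co-culture arrays and 11.32 ± 0.48 (SD, n = 2) on the untreated arrays (p = 0.0278 by a two-sided exact permutation test, which cannot give less with 7 and 2 arrays). The hybridization controls, which are added after labeling, averaged 10.44 ± 0.12 (SD, n = 7) on the co-culture arrays and 11.01 ± 0.48 (SD, n = 2) on the untreated arrays (exact p = 0.0278). The 3′ signal of ACTB exceeded its 5′ signal by 1.38 ± 0.33 (SD, n = 7) on the co-culture arrays and 0.69 ± 0.27 (SD, n = 2) on the untreated arrays (exact p = 0.0278), and for GAPDH by 0.20 ± 0.10 (SD, n = 7) and 0.19 ± 0.07 (SD, n = 2; exact p = 0.917). The control probe sets of 18S ribosomal RNA, another RNA with no poly(A) tail, had log2 values between 12.94 and 13.19 on 6 co-culture arrays and 8.71 on rhSOST array 3, against 11.68 and 9.64 on the untreated arrays (exact p = 0.0833). The control probe set of 28S ribosomal RNA had between 11.78 and 12.13 on the same 6 arrays and 10.17 on rhSOST array 3. On the untreated arrays it had 11.79 and 10.20 (exact p = 0.139), and in both signals the groups overlapped. rhSOST array 3 stood apart from the other co-culture arrays in both. Without it, the log2 difference between rhSOST and untreated PC3 cells was 2.48 for ND6 and -1.64 for COX3. The part of what these control signals reflect in the differences of the members was not tested. The labels name no batch, and whatever else set the untreated arrays apart cannot be told apart from the co-culture.

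Markers of the cells were checked on the same arrays. The 6 epithelial genes KRT8, KRT18, KRT19, EPCAM, CDH1 and CD44 lay between the 96.7 and the 99.5 percentile of every array. The mean log2 value of 7 osteoblast genes ran from 5.50 to 5.73 on the co-culture arrays and from 5.59 to 5.70 on the untreated arrays, and 4 of the 7 passed the filter on low values. COL1A1 and RUNX2 lay at or above the 81.5 percentile of every array, with log2 values from 8.68 to 9.77 and from 8.62 to 9.16 on the co-culture arrays, against 9.14 and 8.92 and against 8.91 and 8.87 on the untreated arrays. IBSP and ALPL lay near the filter, and SPP1, DMP1 and SP7 did not pass it. These probes are made for human transcripts, so RNA of mouse osteoblasts may escape them, and its part was not tested.

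Nuclear genes that serve the mitochondrial genome or share complexes with these subunits had been grouped in 6 lists, and 118 of the 125 genes were measured, each by its brightest probe set. With OB SostKO 1 of the 118 was higher and 0 were lower (limma, adjusted p under 0.05). With rhDKK1 2 were higher and 0 lower, and with rhSOST 2 were higher and 0 lower. COX17, counted with rhDKK1 and rhSOST, passed the filter on low values only through rhSOST arrays 1 and 3. Of all 14863 genes, 1.08% were higher and 0.794% lower with OB SostKO, 1.21% and 0.841% with rhDKK1, and 3.01% and 1.35% with rhSOST. With 1 array left out in turn, the counts of higher genes ran from 0 to 1 with OB SostKO, from 0 to 1 with rhDKK1 and from 0 to 3 with rhSOST. The median log2 difference over the 118 lay between -0.0021 and 0.0042 in the 3 comparisons.

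Of 17 genes for transcription and upkeep of mitochondrial DNA, POLG2, the accessory subunit of the mitochondrial DNA polymerase, rose in all 3 co-cultures. It had log2 values of 8.45 and 8.44 with OB SostKO, 8.41 and 8.42 with rhDKK1, and 8.39, 8.45 and 8.35 with rhSOST, against 7.89 and 8.04 in untreated PC3 cells, and the differences were 0.48, 0.45 and 0.43 (adjusted p = 0.0364, 0.0403 and 0.0233 by limma). With rhSOST array 1, 2 or 3 left out, the adjusted p of POLG2 by limma was 0.0614, 0.0738 and 0.0267 with OB SostKO. In the same fits it was 0.0696, 0.0771 and 0.0334 with rhDKK1 and 0.0623, 0.0918 and 0.0294 with rhSOST. Each co-culture array of POLG2 lay above both untreated arrays. Leaving out an array could therefore not reverse its sign, and the kept direction lends the differences no weight. POLRMT, the mitochondrial RNA polymerase that transcribes both strands, differed by -0.24, -0.13 and 0.09. TFAM, which packages the genome and helps to start transcription, differed by 0.34, 0.25 and -0.37, and neither passed. POLRMT 203783_x_at had 0.03, 0.21 and 0.02. The TFAM value with rhSOST rested on array 3, at 10.40, beside 11.80 and 11.46 on the other rhSOST arrays. Untreated PC3 cells had 11.42 and 11.77. With OB SostKO, other TFAM probe sets had 0.51 (208541_x_at), -0.18 (203177_x_at) and -0.20 (238443_at). None of these probe sets passed. Among 20 genes for processing, tailing and stability of mitochondrial RNA none passed by its brightest probe set. GRSF1 had -0.11 with OB SostKO and -0.12 with rhDKK1 by its brightest. In the same order GRSF1 221917_s_at had 1.04 and 0.79 (adjusted p = 0.0610 and 0.112 by limma). GRSF1 201501_s_at had -0.02 and 0.03, and GRSF1 215030_at had 0.08 and 0.04. LRPPRC and SLIRP, which together stabilize the heavy strand messenger RNAs, differed by -0.10, -0.07 and -0.02 and by 0.09, 0.08 and 0.13, and FASTK, which is known to be needed for ND6 messenger RNA, by -0.05, -0.10 and 0.03. MTPAP, the mitochondrial poly(A) polymerase, had 0.14, 0.10 and 0.09 by its brightest probe set. Its probe set 229676_at had 1.04, 1.03 and 0.61 (adjusted p = 0.240, 0.244 and 0.420), and none of its 4 probe sets passed. LRPPRC was likewise read differently by another probe set, 1557360_at, which had 0.66, 0.57 and 0.60 (adjusted p = 0.0588, 0.0764 and 0.0386 by limma). With rhSOST array 1, 2 or 3 left out, its adjusted p with rhSOST was 0.0887, 0.124 and 0.0589 by limma.

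Of the nuclear subunits, none of 33 of complex I and none of 10 of complex IV passed in any co-culture. NDUFS6 had the smallest p of the complex I subunits in each co-culture, with log2 differences of 0.50, 0.44 and 0.41 (adjusted p = 0.0705, 0.0933 and 0.0695 by limma). NDUFB8 had 0.47, 0.61 and 0.81 by probe set 214241_at (adjusted p = 0.120, 0.0643 and 0.0161) and -0.17, -0.17 and -0.10 by its brightest. With rhSOST array 1, 2 or 3 left out, the adjusted p of 214241_at with rhSOST was 0.0511, 0.0490 and 0.0244 by limma. Of the complex IV subunits COX7B differed by -0.19, -0.21 and -0.10. Among 33 assembly factors COX17, which carries copper to complex IV, was higher by 0.59 with rhDKK1 and 0.78 with rhSOST (adjusted p = 0.0380 and 0.00829 by limma), and by 0.53 with OB SostKO (adjusted p = 0.0529), at a low mean log2 value of 4.66, 4.72 and 4.91 with OB SostKO, rhDKK1 and rhSOST, against 4.13 in untreated PC3 cells. COX17 passed the filter on low values only through rhSOST arrays 1 and 3, and without either of them it was not kept. These arrays belong to the group where COX17 was highest, so its calls lend the differences no weight. Without rhSOST array 2 its adjusted p by limma was 0.0632 with rhDKK1 and 0.0324 with rhSOST. None of 5 regulators of mitochondrial biogenesis passed, among them NRF1 at -0.15, -0.06 and 0.02.

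**Figure D4:**
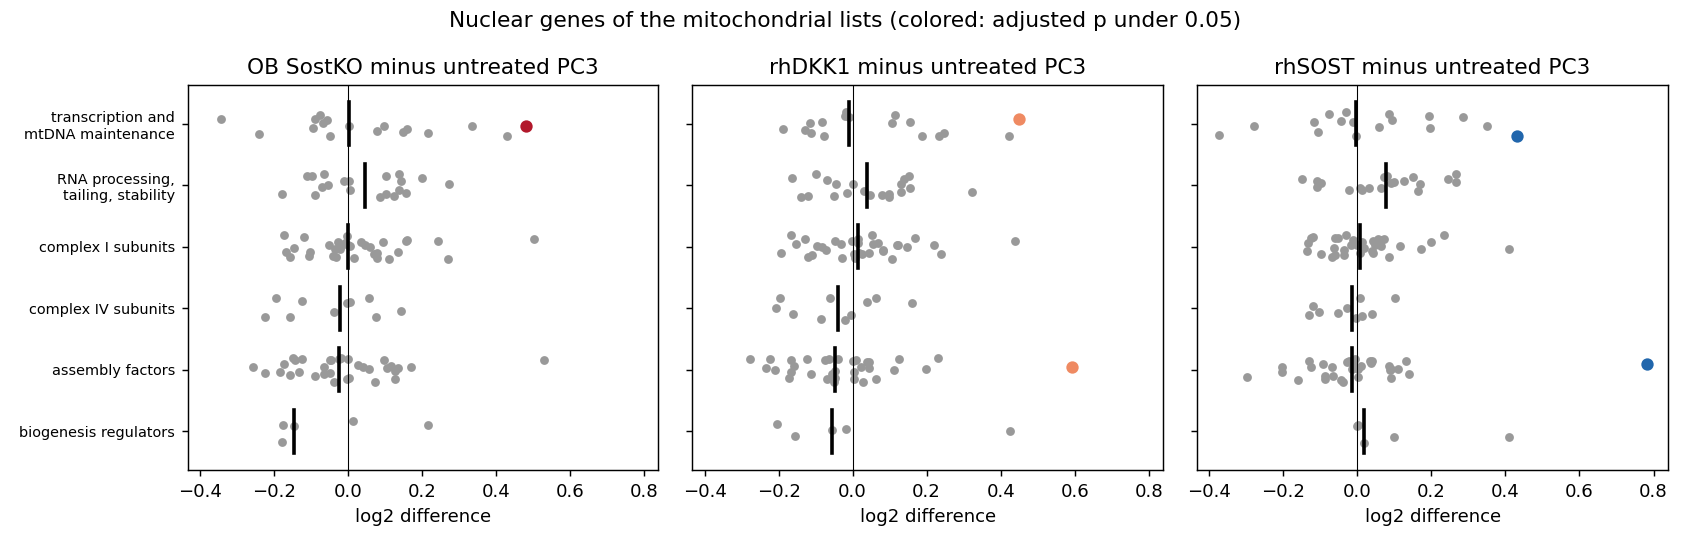
Log2 difference from untreated PC3 cells (x axis) of 118 nuclear genes in 6 lists (rows) in the 3 co-cultures (panels); each point is a gene, black bars are list medians, and colored points passed an adjusted p under 0.05 in limma. The colored points are POLG2 at 0.48, 0.45 and 0.43 and COX17 at 0.59 with rhDKK1 and 0.78 with rhSOST. COX17 passed the filter on low values only through rhSOST arrays 1 and 3.

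The probe sets most like each member were found by the mean absolute difference of log2 values over the 9 arrays, after the mean of each profile was subtracted, among 28243 kept probe sets with a single gene symbol. ND6 lay nearest to 2 probe sets of IGFBP5, a binding protein of insulin-like growth factors (0.343 and 0.392), LRATD1 (0.370), the long noncoding RNA LINC00261 (0.398) and CCNI, a cyclin (0.434). No other mitochondrially encoded probe set was among them, but the other 9 fell where ND6 rose, so this absence carries no weight. The distances take in the untreated arrays, so they follow the differences on which ND6 and COX3 had been selected. COX3 lay nearer to its neighbors, which were the chemokine CXCL1 (0.105), DHRS9 (0.111), ANXA10 (0.112), the cytokine IL24 (0.114) and the chemokine CXCL2 (0.117). The other members had nearest distances between 0.0140 and 0.164. The 2 COX2 probe sets were each nearest to the other (0.0140), and ATP6 242131_at had ATP6 1553567_s_at among its 5 nearest (0.175).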

How the data were processed

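The authors made the deposited values from the arrays with RMA, named in the submitters' processing notes, and deposited them on the log2 scale. Its version and software are not given in the sources used here. RMA equalizes the distributions of the arrays, so values are relative to the rest of each array. No arrays were pooled, depth does not apply, and precision is limited by there being 9 arrays. Groups came from the labels. The members, gene lists and tests were chosen with earlier results of these data known.

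Values were analyzed in R 4.3.3. After 62 control probe sets were left out, 33970 were kept for reaching, on 2 arrays or more, the 40th percentile of all values there. Group means (4 groups) were fitted in limma 3.58.1 (lmFit, eBayes), with Benjamini-Hochberg adjustment over all kept probe sets and calls at an adjusted p under 0.05, two-sided. The procedure was tested on simulated data. A gene was read by its brightest kept probe set with a single symbol, which gave 14863 genes; 1307 kept probe sets carry several symbols and 4419 none here. The genes to be named were every member, its 5 nearest probe sets and up to 4 genes of each list with the smallest p. POLRMT, TFAM, MTPAP, LRPPRC, SLIRP and FASTK were to be named in any case. LRPPRC 1557360_at, NDUFB8 214241_at, GRSF1 and the further probe sets of POLRMT and TFAM were added after their values were seen. Alternatives were other scalings, filters, fits and tests, a replicate block and leaving out each array.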

Additional observations from a re-analysis of the deposited data

How the results depend on the processing

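ND6 kept its rise and COX3 its fall in every co-culture under cyclic loess, median centring, the replicate block and with each array left out. Both had been selected on these differences, and all their co-culture arrays lay beyond both untreated arrays. Leaving out an array could therefore not reverse the sign, and the kept directions lend the differences no weight. With 1 array left out, the log2 differences of ND6 ran from 1.88 to 2.80 for OB SostKO, 2.17 to 3.09 for rhDKK1 and 2.00 to 2.93 for rhSOST, and those of COX3 from -1.73 to -1.53, -1.78 to -1.57 and -1.70 to -1.50. The widest values of ND6 came from leaving out an untreated array.

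The small differences between co-cultures changed sign in places, none of them called. COX3 in OB SostKO against rhSOST was 0.0185 under cyclic loess and 0.0105 with the replicate block, and ran from -0.113 to 0.0200 with 1 array left out (0.0200 without OB SostKO array 1, 0.0177 without rhSOST array 1 and 0.0105 without rhSOST array 3). COX3 in OB SostKO against rhDKK1 ran from -0.0011 (without OB SostKO array 2) to 0.0954. ND6 ran from -0.513 to 0.259 in OB SostKO against rhSOST and from -0.674 to 0.0981 in OB SostKO against rhDKK1, each above 0 without OB SostKO array 2, and from -0.0708 (without rhDKK1 array 2) to 0.392 in rhDKK1 against rhSOST.

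Counts are given below for OB SostKO, rhDKK1 and rhSOST in that order. Of the 8 members other than ND6 and COX3, the counts called lower were 1, 0 and 1. They became 0 for OB SostKO under median centring, 2 and 1 for OB SostKO and rhDKK1 under a 60th percentile filter, 0 and 0 for OB SostKO and rhSOST when only the 2 groups compared were fitted, and 0 for rhSOST with the replicate block. The methods' ANOVA with Tukey comparisons gave 4 for OB SostKO and 2 for rhDKK1 unadjusted, and 0 for OB SostKO and rhSOST after Benjamini-Hochberg. The methods' paired t-test gave 2 for rhDKK1 and 0 for rhSOST unadjusted, and 0 for OB SostKO and rhSOST after Benjamini-Hochberg. With each array left out in turn, the counts ran from 0 to 2 in each co-culture.

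Of the 118 list genes, 1, 2 and 2 were higher and 0 lower. The counts of higher genes were 0, 1 and 1 with the replicate block, 0 and 1 for OB SostKO and rhDKK1 with no filter, 1 for rhDKK1 with the 60th percentile filter, 0, 0 and 0 on only the 2 groups compared, and 3 and 4 for OB SostKO and rhSOST with the mean of a gene's probe sets. Under cyclic loess and under the 60th percentile filter 1 gene was lower with rhSOST. The ANOVA gave 4, 5 and 7 higher and 7, 6 and 3 lower unadjusted and 0 higher after Benjamini-Hochberg. The paired t-test gave 7 and 5 higher for OB SostKO and rhSOST and 5, 6 and 7 lower unadjusted, and 0 higher after Benjamini-Hochberg. With each array left out the higher counts ran from 0 to 1 for OB SostKO and rhDKK1 and from 0 to 3 for rhSOST, and 0 genes were lower. The cause of these changes was not tested. Same-numbered arrays did not deviate together (correlations from -0.54 to 0.43 over 12 pairs), so the replicate numbers were not taken as pairs. Between groups of 2 arrays both replicates give the same correlation by construction, so the 12 are not independent.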
